A study of Mus musculus with 42 samples.

Results

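The liver libraries of mice fed EPA were set against those of mice fed an omega-3-deficient diet (OD), over every gene with enough counts. Of the 42 libraries of the series, 9 belong to this comparison: 5 EPA livers and 4 OD livers. Of 48709 genes in the count table, 4605 had enough counts in these 9 libraries to be tested. All mice carried the K14-Rac1V12 transgene, in which the keratin 14 promoter drives a constitutively active form of the GTPase Rac1 in keratinocytes, a model of psoriasis-like skin inflammation. The livers of both groups are therefore those of transgenic mice, and mice without the transgene were not analysed here. At 14 weeks of age, after 2 weeks on the OD diet, the animals were randomised to 3 diets for 12 weeks, with 5 mice per diet according to the labels. The EPA diet supplied 3.0 g of EPA per kg of diet, the DHA diet was a second omega-3 diet (its 5 livers entered the fit for the estimate of spread and are given beside EPA), and the OD group stayed on the deficient diet. Livers were flushed with cold saline before RNA isolation, and libraries of the 3' ends of transcripts were made from 10 ng of RNA with molecular identifiers.

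EPA (eicosapentaenoic acid) and DHA (docosahexaenoic acid) are the long-chain omega-3 fatty acids of fish oil. In the liver, polyunsaturated fatty acids are known to hold back the sterol regulatory element-binding protein SREBP-1, which switches on genes of fatty acid synthesis, and to act as ligands of PPAR alpha, the nuclear receptor that switches on fatty acid oxidation. Mouse liver also differs strongly between the sexes: the pattern of growth hormone secretion sets the levels of many cytochrome P450, hydroxysteroid and major urinary protein (MUP) genes. The comparison asks which of these programmes differed after 12 weeks of EPA.

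Total counts were 454677 to 497332 per EPA liver and 549635 to 768532 per OD liver. The means, 479164 ± 17866 for EPA and 671271 ± 96218 for OD (SD, n = 5 and 4), differed with an exact 2-sided permutation p of 0.00794, the smallest this design allows, and 0.0238 after adjustment over 3 library measures. The share of mitochondrially encoded transcripts averaged 9.85% ± 1.41 in EPA and 9.55% ± 1.05 in OD livers (exact permutation p = 0.722). Albumin, the defining transcript of hepatocytes, had 43090 to 67730 CPM (counts scaled to a common library total) in EPA and 45220 to 52700 CPM in OD livers, and the median log2 difference of 14 hepatocyte markers was -0.02. CPM here are scaled by edgeR's TMM factors and taken over the counts of tested genes, except where a share of all counts is named. No pair of the liver libraries of a diet agreed within sampling noise over 26 pairs, so each counts as 1 sample.

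The labels do not give the sex of the mice, and the livers were not alike in it. Xist, the RNA of the inactive X chromosome, stood at 833 and 441 CPM of all counts in EPA livers 1 and 5, at 0 to 6.32 CPM in EPA livers 2, 3 and 4 and at 0 to 3.64 CPM in the 4 OD livers. Counts of 4 Y-linked genes summed to 2 and 0 in EPA livers 1 and 5, to 55 to 74 in the other 3 EPA livers and to 38 to 104 in OD livers. Thus 2 of the 5 EPA libraries carry female-type transcripts and none of the OD livers does, so sex and diet cannot be told apart for genes that differ between the sexes. For this reason some results are also given without EPA livers 1 and 5 and the 1 DHA liver of the same kind. This is named below as the fit without high-Xist livers. Where no such value is given, the difference includes the high-Xist livers.

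No gene passed an adjusted p of 0.05 in edgeR's quasi-likelihood test of EPA against OD (0% of 4605), and the smallest adjusted p was 0.171. At an unadjusted p under 0.05, 162 genes were higher on EPA (3.52%) and 147 were lower (3.19%). The median log2 difference over all tested genes was 0.01, with quartiles of -0.15 and 0.19. For 38 genes every EPA liver lay above every OD liver (0.825% of those tested) and for 52 genes every EPA liver lay below every OD liver (1.13%). DESeq2 on the same genes called 4 (Mup2, Fmo2, Abhd2 and Ociad2), and limma-voom with sample weights called 0. The genes described below are therefore those with the smallest p, not genes called by the main test.

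**Figure D1:**
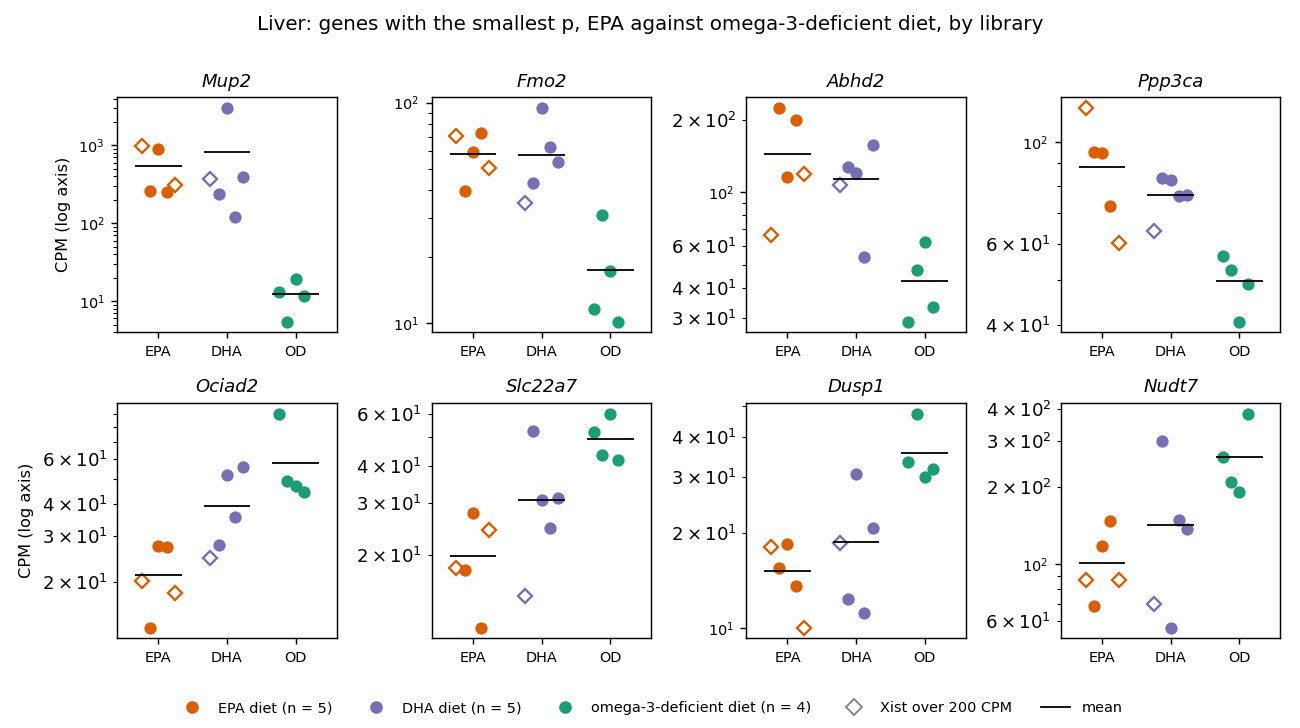
CPM on a log axis of 8 genes among those with the smallest p, in each liver of the EPA, DHA and OD diets; circles are livers, open diamonds the livers with Xist over 200 CPM, and bars the means. In each of the 8 panels the 5 EPA livers lie on one side of the 4 OD livers, and the DHA livers overlap the EPA livers.

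Mup2, 1 of the lipocalins that carry pheromones into mouse urine, had the largest of these differences. Its raw counts were 496, 118, 393, 110 and 153 in EPA livers 1 to 5, against 9, 3, 9 and 8 in OD livers 1 to 4. Scaled, these were 996, 261, 906, 249 and 308 CPM in EPA and 13.0, 5.46, 19.2 and 11.6 CPM in OD livers. The groups did not overlap, and neither the 2 high-Xist EPA livers nor the other 3 formed a separate range. The log2 difference was 5.46 ± 0.99 (SE; adjusted p = 0.171), and without high-Xist livers it was 5.25 (adjusted p = 0.0925). Over the alternative settings it lay between 4.86 and 5.69, with adjusted p values up to 0.563. The smallest, 7.67e-56, came from the edgeR fit with no filter on low counts, which called 124 genes. DESeq2 gave 3.74e-06. The DHA livers, compared with the same OD livers, had 366, 238, 3019, 119 and 395 CPM (log2 difference 6.06, adjusted p = 0.0646), and the difference between EPA and DHA was -0.60 ± 0.67 (adjusted p = 0.9999).

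The count of Mup2 (chromosome 4, 60135932 to 60154289 on the minus strand, GRCm38) is uncertain because of its copies. All 613 windows of 100 bases, the length of the sequenced read, in the last 400 bases of its annotated transcripts also occur in another Mup gene, and each of them occurs in Mup14. Mup14 itself had 1611, 7555, 20160, 13700 and 3506 CPM in EPA livers and 16990, 28490, 32090 and 14550 CPM in OD livers. Reads of these copies can be split by the counting, so the Mup2 values are those of the deposited table and not shown to be those of 1 gene. Mup3, by contrast, shares none of its 580 windows with another Mup gene. It had 7082, 6107, 12230, 13610 and 4341 CPM in EPA livers, against 21850, 19850, 21440 and 19200 CPM in OD livers. All EPA livers lay below all OD livers (log2 difference -1.25 ± 0.35, adjusted p = 0.45), and without high-Xist livers the difference was -0.96 (adjusted p = 0.572). The promoters of Mup2 and Mup3 (RefSeq, GRCm38.p6, from 250 bases before to 50 bases after the start, read on the minus strand) are shown because the pair lay on opposite sides of OD. The window of Mup2 lies inside the gene span given above, so its RefSeq start is not the start of that span. They aligned over 284 columns with 218 identical bases (76.8%), 28 mismatches and 38 bases of Mup2 opposite gaps. Capitals mark the bases that differ within the aligned stretch, among them an A-rich insert before the shared TATA stretch in Mup2.
Mup2, chr4:60139807-60140106: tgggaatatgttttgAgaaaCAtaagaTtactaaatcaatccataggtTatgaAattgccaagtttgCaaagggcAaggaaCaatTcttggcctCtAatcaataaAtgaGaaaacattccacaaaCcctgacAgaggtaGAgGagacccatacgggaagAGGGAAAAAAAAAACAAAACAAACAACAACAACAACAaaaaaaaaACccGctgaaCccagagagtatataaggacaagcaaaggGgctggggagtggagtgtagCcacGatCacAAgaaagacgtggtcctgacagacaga
Mup3, chr4:62087268-62087567: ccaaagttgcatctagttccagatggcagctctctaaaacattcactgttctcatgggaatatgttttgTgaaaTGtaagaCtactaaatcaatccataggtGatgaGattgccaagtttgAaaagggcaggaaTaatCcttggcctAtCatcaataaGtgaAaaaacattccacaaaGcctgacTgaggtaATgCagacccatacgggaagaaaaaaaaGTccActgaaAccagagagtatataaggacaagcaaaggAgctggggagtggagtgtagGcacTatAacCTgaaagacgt

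Of the other genes higher on EPA, Fmo2, a flavin-containing monooxygenase, had 70.3, 39.9, 59.9, 72.5 and 50.3 CPM in EPA livers and 11.6, 30.9, 17.1 and 10.1 CPM in OD livers. The difference was 1.78 ± 0.35 on the log2 scale (adjusted p = 0.171) and 1.74 without high-Xist livers (adjusted p = 0.132). Abhd2, a serine hydrolase that cleaves monoacylglycerol, had 66.3, 224, 115, 199 and 119 CPM in EPA livers, against 29.0, 47.3, 62.0 and 33.3 CPM in OD livers. Its log2 difference was 1.78 ± 0.36 (adjusted p = 0.171), and in the fit without high-Xist livers it rose by 2.08 (adjusted p = 0.0264). Ppp3ca, the catalytic alpha subunit of calcineurin, had 60.4 to 118 CPM in EPA and 40.6 to 56.5 CPM in OD livers (log2 difference 0.81 ± 0.19, adjusted p = 0.353). For Fmo2, Abhd2 and Ppp3ca the groups did not overlap, and the DHA livers ranged over 35.1 to 94.5, 53.8 to 157 and 64.1 to 83.4 CPM.

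The same separation held for Dhdh (dihydrodiol dehydrogenase; log2 difference 0.57), Arglu1 (0.74), Imp3 (of ribosomal RNA processing; 0.73), Sptbn1 (beta-spectrin; 0.53) and Grn (progranulin; 0.64), each with an adjusted p of 0.45. Sptbn1 had a log2 difference of -0.0023 on DHA against OD, and its EPA against DHA difference was 0.54 ± 0.14 (adjusted p = 0.9999). Tm4sf4, a tetraspan membrane protein and here also on the list of bile duct markers, had 143, 290, 242, 383 and 276 CPM in EPA livers and 169, 102, 128 and 158 CPM in OD livers (log2 difference 0.93, adjusted p = 0.45). Krt19, a defining bile duct marker, had 1 count in all EPA livers and 1 count in all OD livers. Abcc3, a transporter that exports bile acid and drug conjugates across the basolateral membrane, had 106 and 88.5 CPM in the 2 high-Xist EPA livers, 24.9 to 48.4 CPM in the other 3 and 23.5 to 30.4 CPM in OD livers. Its log2 difference was 1.21 ± 0.34 with all livers (adjusted p = 0.459) and 0.47 without high-Xist livers (adjusted p = 0.789). Golt1a, a Golgi transport protein, had 19.9 to 39.2 CPM in EPA livers, against 11.6, 20.01, 0 and 0 CPM in OD livers (log2 difference 1.89 ± 0.53, adjusted p = 0.45).

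Among genes lower on EPA, Ociad2 had the smallest p. It had 20.1, 13.3, 27.6, 27.2 and 18.1 CPM in EPA livers, against 89.8, 49.1, 47.1 and 44.8 CPM in OD livers, and the groups did not overlap. The log2 difference was -1.45 ± 0.30 (adjusted p = 0.197) and -1.36 without high-Xist livers. Slc22a7, the organic anion transporter OAT2 of the hepatocyte, had 11.3 to 27.6 CPM in EPA and 41.9 to 59.9 CPM in OD livers (log2 difference -1.30 ± 0.29, adjusted p = 0.321). Dusp1, a phosphatase that switches off MAP kinases and is itself an immediate early gene, had 10.1 to 18.4 CPM in EPA and 29.9 to 47.3 CPM in OD livers (-1.22 ± 0.28, adjusted p = 0.321). Both kept apart without high-Xist livers, with differences of -1.38 and -1.16. Dusp1 was 1 of 2 genes of the immediate early and heat shock list with an unadjusted p under 0.05, beside 3.19% of all genes lower. The other was Gadd45g (-0.99). The median over the 12 tested genes of that list was -0.10, or -0.32 without OD liver 4 and -0.02 without OD liver 2.

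Enzymes of hepatic metabolism followed. Adh4, an alcohol dehydrogenase that also oxidises retinol, had 23.0 to 40.2 CPM in EPA and 43.7 to 89.8 CPM in OD livers (log2 difference -0.83, adjusted p = 0.45). Sdr9c7, a short-chain dehydrogenase, had 2.27 to 20.1 CPM in EPA and 20.3 to 55.6 CPM in OD livers (-1.58, adjusted p = 0.45). Nudt7, a peroxisomal hydrolase of coenzyme A, had 68.6 to 147 CPM in EPA and 190 to 383 CPM in OD livers (-1.37, adjusted p = 0.45). Srd5a1, a steroid 5-alpha-reductase, had 34.1, 19.9, 53, 34.01 and 14.1 CPM in EPA livers, against 88.3, 96.4, 91.97 and 39.05 CPM in OD livers, where the lowest OD liver overlapped the EPA range (-1.34, adjusted p = 0.45). Psmb1, a proteasome subunit, and Mrpl10, a mitochondrial ribosomal protein, had differences of -0.46 and -0.95 (adjusted p = 0.45 each).

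Genes of cholesterol synthesis and uptake mostly had negative differences, none of which passed the test, and the size of the list median rested in part on OD liver 4. The list covers the pathway downstream of acetyl-CoA (Acat2, Hmgcs1, Idi1, Fdps, Cyp51, Dhcr7 and others) and cholesterol uptake. Of 21 tested genes 19 had a negative log2 difference, with a median of -0.51 beside 0.01 for all tested genes, and 3 had an unadjusted p under 0.05, all lower, beside 3.19% of all genes. Acat2, the cytosolic thiolase of the first step, had 46.2, 39.9, 29.9, 45.3 and 44.3 CPM in EPA livers and 86.9, 60.0, 47.1 and 82.4 CPM in OD livers. The groups did not overlap, the highest EPA liver lying just under the lowest OD liver (log2 difference -0.76 ± 0.23, adjusted p = 0.486). Fdps, farnesyl diphosphate synthase, had 108, 120, 53, 56.7 and 127 CPM in EPA livers, against 211, 107, 47.1 and 472 CPM in OD livers (-1.18 ± 0.53, adjusted p = 0.725). Dhcr7, which makes cholesterol from its last precursor, had 15.9 to 44.3 CPM in EPA and 34.2 to 104 CPM in OD livers (-1.05 ± 0.50, adjusted p = 0.741).

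The spread among the OD livers was larger than the difference between diets. The mean log2 level of the cholesterol list, taken relative to the OD mean, was -0.08, -0.22, -1.12, -0.77 and 0.17 in EPA livers 1 to 5, against 0.27, -0.08, -0.95 and 0.76 in OD livers 1 to 4. EPA livers 3 and 4 and OD liver 3 thus stood low, OD liver 4 stood highest, and the groups overlapped. Without OD liver 4 the median of the list was -0.25, with 15 of 21 members negative and 1 of unadjusted p under 0.05, and with any other single EPA or OD liver left out it lay between -0.72 and -0.42. Without the high-Xist livers the median of the list was -0.92 and all 21 members were negative, none called. The median was -0.40 on DHA, which is set against the same OD livers.

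Hmgcs1, which makes HMG-CoA, carried the sterol regulatory element TCACNCCAC, searched on both strands, in its promoter. Among the 14 tested genes of the list with a RefSeq promoter it was the 1 that held it, beside 1.44% of 27025 genes with a promoter. Its levels were 118, 111, 41.5, 38.5 and 145 CPM in EPA livers and 117, 74.6, 32.1 and 317 CPM in OD livers (log2 difference -0.59 ± 0.56, adjusted p = 0.91), in the same low-standing livers as the list mean. The window of the other genes without a match says only that these letters are not in it. The sequence (RefSeq, GRCm38.p6, plus strand) is given with the element in capitals.
Hmgcs1, chr13:119690101-119690400: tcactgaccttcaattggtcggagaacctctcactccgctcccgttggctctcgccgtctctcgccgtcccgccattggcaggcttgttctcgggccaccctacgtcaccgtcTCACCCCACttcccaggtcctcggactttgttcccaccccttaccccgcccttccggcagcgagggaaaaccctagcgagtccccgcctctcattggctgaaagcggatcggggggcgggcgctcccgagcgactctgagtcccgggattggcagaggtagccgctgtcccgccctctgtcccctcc

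**Figure D2:**
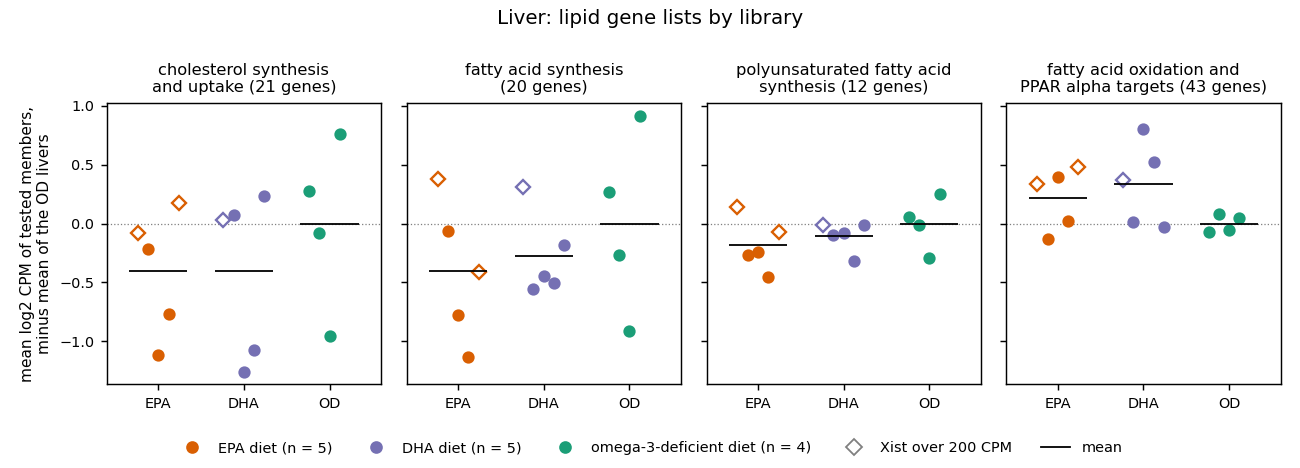
Mean log2 CPM over the tested members of 4 lipid gene lists in each liver of the EPA, DHA and OD diets, relative to the mean of the OD livers; circles are livers, open diamonds livers with Xist over 200 CPM, bars are means. EPA livers range from -1.12 to 0.17 for cholesterol genes, within the span of -0.95 to 0.76 of the OD livers but for the lowest.

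Fatty acid synthesis had a negative list median that rested largely on OD liver 4. Of 20 tested genes 17 were negative with all livers, and the median was -0.43. Thrsp and Taldo1 had an unadjusted p under 0.05, both lower, beside 3.19% of all genes. Without OD liver 4 the median was -0.08 with 12 of 20 negative, while it was -0.74 without EPA liver 1 and -0.67 without OD liver 3. Thrsp (Spot 14), a lipogenic regulator, had 331, 122, 134, 204 and 209 CPM in EPA livers, against 518, 813, 145 and 752 CPM in OD livers (log2 difference -1.48 ± 0.43, adjusted p = 0.465). OD liver 3 alone lay within the EPA range. Fasn, fatty acid synthase, had 36.9 to 181 CPM in EPA and 25.7 to 289 CPM in OD livers (-0.69 ± 0.55), and Scd1, stearoyl-CoA desaturase, 1620 to 5354 CPM in EPA and 473 to 7519 CPM in OD livers (-0.43 ± 0.60). Acly, ATP citrate lyase, had 41.5 to 247 CPM in EPA and 59.9 to 532 CPM in OD livers (-0.98 ± 0.55, adjusted p = 0.823). Acaca, acetyl-CoA carboxylase, differed by -0.41 ± 0.51 and the elongase Elovl6 by -0.85 ± 0.62. Without OD liver 4 these differences were 0.15 for Fasn, -0.08 for Scd1, -0.0002 for Acly, 0.20 for Acaca and -0.08 for Elovl6, while that of Thrsp was -1.30.

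Srebf1, the gene of SREBP-1, differed within the EPA diet. It had 135 and 62.4 CPM in the high-Xist EPA livers 1 and 5, 31, 23.0 and 13.6 CPM in EPA livers 2, 3 and 4, and 56.5, 71.0, 55.6 and 66.5 CPM in OD livers. With all livers the log2 difference was -0.21 ± 0.43 (adjusted p = 0.98). Without high-Xist livers it was -1.47 (adjusted p = 0.116), the 3 remaining EPA livers all below the 4 OD livers. The list median was -0.84 in that fit, with 18 of 20 genes negative and none called. The mean level of the list ranged from -0.91 to 0.92 over the OD livers and from -1.13 to 0.38 over the EPA livers.

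The enzymes that make long polyunsaturated fatty acids had small negative differences. Of 12 tested genes 9 were negative with a median of -0.20, which was -0.13 without OD liver 1, -0.34 without OD liver 3 and -0.32 without EPA liver 1. Fads1, the delta-5 desaturase, had 327, 219, 226, 229 and 298 CPM in EPA livers and 382, 320, 280 and 414 CPM in OD livers (log2 difference -0.43 ± 0.20, adjusted p = 0.751). Fads2, the delta-6 desaturase, had 24.1, 19.9, 20.7, 11.3 and 40.2 CPM in EPA livers, against 30.4, 41.8, 32.1 and 43.4 CPM in OD livers (-0.65 ± 0.32, adjusted p = 0.763). In both genes the 3 EPA livers of low Xist lay below all OD livers, and without high-Xist livers the differences were -0.65 (adjusted p = 0.51) and -1.09 (adjusted p = 0.392). The 1 gene of the list with an unadjusted p under 0.05, beside 3.19% of all genes lower, was Scp2. This sterol carrier protein of peroxisomes differed by -0.32, EPA below OD in all livers. Elovl5 differed by -0.11 ± 0.36.

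Fatty acid oxidation and the PPAR alpha targets leaned the other way. Of 43 tested genes 34 had a positive difference, with a median of 0.19, and 3 had an unadjusted p under 0.05, all higher, beside 3.52% of all genes. Cd36, which takes up fatty acids at the cell surface, had 60.2, 66.4, 59.9, 86.2 and 111 CPM in EPA livers, against 44.9, 14.6, 38.5 and 33.3 CPM in OD livers. The groups did not overlap (log2 difference 1.21 ± 0.36, adjusted p = 0.48), also without high-Xist livers (1.08). Cyp4a14, a fatty acid omega-hydroxylase, had 295 and 322 CPM in the high-Xist EPA livers 1 and 5, 28.8, 46.1 and 38.5 CPM in the other 3 EPA livers and 4.34, 25.5, 66.3 and 60.7 CPM in OD livers. Its log2 difference of 1.94 ± 0.76 with all livers became -0.0285 without high-Xist livers. Its neighbour in function Cyp4a10 gave 1.26 and 0.11 in the same order, Vnn1 (pantetheinase) 1.34 and 0.73, and Ehhadh, the peroxisomal bifunctional enzyme, 0.43 and -0.21.

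Other genes of the list had smaller differences. Cpt1a, which admits fatty acids to mitochondria, had 244 to 304 CPM in EPA and 211 to 287 CPM in OD livers (log2 difference 0.05 ± 0.15). Angptl4, an inhibitor of lipoprotein lipase, differed by 0.30 ± 0.26. Without high-Xist livers the median of the list was 0.11, with 27 of 43 genes positive.

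Bile acid and lipoprotein genes were mostly on the negative side. Of 21 tested bile acid genes 15 were negative (median -0.23) and 5 had an unadjusted p under 0.05, all lower, beside 3.19% of all genes. The median was -0.14 without EPA liver 2 and likewise without OD liver 4. Cyp8b1, the 12-alpha-hydroxylase that sets the share of cholic acid, had 32.1 to 57.6 CPM in EPA and 34.6 to 126 CPM in OD livers (log2 difference -0.94 ± 0.35, adjusted p = 0.643), and Baat, which conjugates bile acids to taurine and glycine, 90.4 to 126 CPM in EPA and 131 to 169 CPM in OD livers (-0.35 ± 0.14, adjusted p = 0.702). Baat did not overlap between the groups. Cyp7a1, the rate-limiting enzyme, had 15.5 to 118 CPM in EPA and 18.8 to 188 CPM in OD livers (-0.41 ± 0.58). Apoa1, the main protein of HDL, had 6083, 6788, 6652, 7411 and 6690 CPM in EPA livers, against 8889, 9931, 10220 and 9385 CPM in OD livers. All EPA livers lay below all OD livers (-0.51 ± 0.16, adjusted p = 0.561), as did DHA livers with 5535 to 8508 CPM. Apoa5 and the HDL receptor Scarb1 differed by -0.72 and -0.48 (adjusted p = 0.702 each), and the median of the 20 lipoprotein genes was -0.17.

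Genes known to differ between male and female liver had list medians far from that of all tested genes. Of 24 male-biased genes 19 had enough counts to be tested. All 19 were negative (median -1.25), and 11 had an unadjusted p under 0.05, beside 3.19% of all genes. A gene near 0 in EPA livers can pass the count filter through OD livers alone, so the filter bears on the count of negative members. Hsd3b5, a steroid dehydrogenase of male liver, had 0, 2.21, 16.1, 22.7 and 0 CPM in EPA livers, against 42, 52.8, 87.7 and 63.6 CPM in OD livers (log2 difference -2.92 ± 0.80, adjusted p = 0.45). Elovl3, a very-long-chain elongase, had 8.03, 2.21, 16.1, 27.2 and 0 CPM in EPA livers, against 101, 18.2, 79.1 and 34.7 CPM in OD livers (-2.46 ± 0.64, adjusted p = 0.45). Cyp7b1, an oxysterol hydroxylase, had 10.1 to 48.4 CPM in EPA and 37.6 to 197 CPM in OD livers (-1.86 ± 0.69). The complement genes C6 and C8b, both on this list, differed by -1.36 and -0.79, and C6 had 170 CPM in EPA liver 4 against 14.1 to 48.4 CPM in the other EPA livers and 116 to 180 CPM in OD livers. With all livers C6 was not called. Without EPA liver 4, the only EPA liver within the OD range, C6 fell by 2.21 on the log2 scale (adjusted p = 0.0162). That call follows in part from leaving out this liver.

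Of 25 female-biased genes only 8 had enough counts to be tested. All 8 were positive (median 1.66), 5 of them with an unadjusted p under 0.05, beside 3.52% of all genes. A gene near 0 in OD livers can pass the count filter through EPA livers alone, so the filter bears on the count of positive members. Cyp2b9, a cytochrome P450 of female liver, had 175, 124, 85.2, 6.80 and 179 CPM in EPA livers and 37.6, 40.0, 19.2 and 36.2 CPM in OD livers (log2 difference 1.76 ± 0.60, adjusted p = 0.615). Cyp17a1, of steroid synthesis, had 27.6 to 206 CPM in EPA and 15.9 to 67.3 CPM in OD livers (1.57 ± 0.52). Cyp2c40 had 281 and 111 CPM in EPA livers 1 and 5, 53.1, 0 and 0 CPM in EPA livers 2, 3 and 4 and 1.45 to 24.6 CPM in OD livers (3.05 with all livers, 0.71 without high-Xist livers). Fmo2 is also on this list, and was as high in the EPA livers of low Xist.

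The levels of these lists also varied among livers of low Xist, and the part of sex in them was not tested. The mean log2 level of male-biased genes, relative to the OD mean, was -2.49 and -2.48 in the high-Xist EPA livers 1 and 5, and -1.99, -1.01 and -0.31 in EPA livers 2, 3 and 4, against -0.22 to 0.51 in OD livers. EPA liver 2, with Xist at 6.32 CPM and 74 counts of the Y-linked genes, thus lay nearer to the high-Xist livers than to OD. DHA liver 3, also of low Xist, stood at -2.55, while the other low-Xist DHA livers, 2, 4 and 5, stood at -0.20, -0.22 and -0.99. Without high-Xist livers the medians were -0.85 for male-biased genes, with 18 of 19 negative, and 1.03 for female-biased genes, with 7 of 8 positive, and no gene of either list was called.

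**Figure D3:**
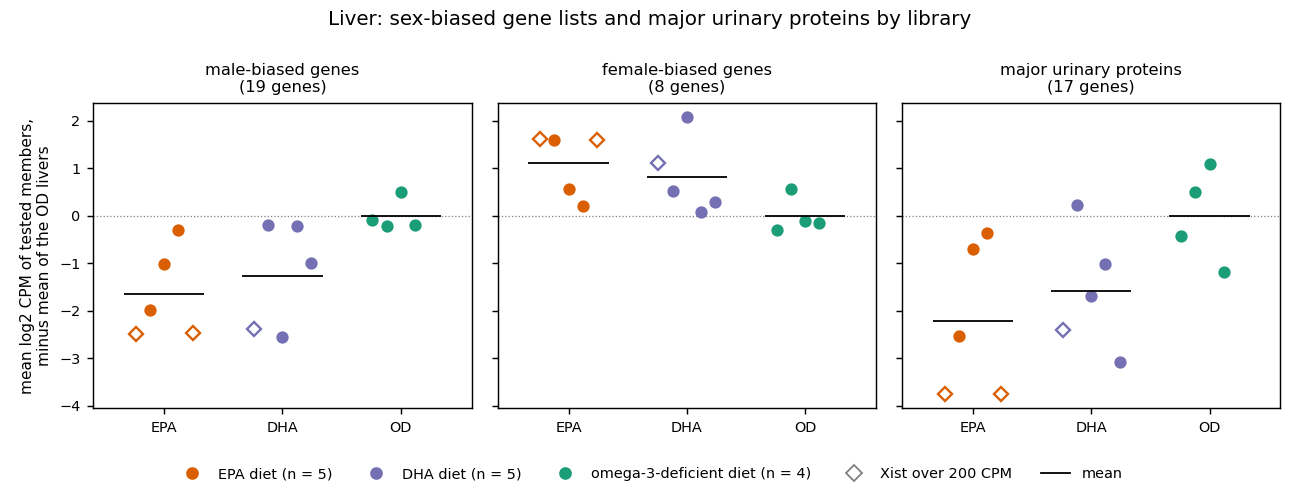
Mean log2 CPM over the tested members of the male-biased, female-biased and major urinary protein lists in each liver of the EPA, DHA and OD diets, relative to the OD mean; open diamonds are livers with Xist over 200 CPM and bars are means. The high-Xist EPA livers stand lowest on EPA for male-biased genes at -2.49 and -2.48, and EPA liver 2, a circle, stands at -1.99.

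The major urinary proteins together took 1.26, 2.74, 9.29, 6.42 and 1.06% of all counts in EPA livers 1 to 5, against 8.24, 13.8, 17.03 and 5.51% in OD livers 1 to 4. Of 17 tested members 16 were negative (median -1.76), 8 of these with an unadjusted p under 0.05, beside 3.19% of all genes. Mup2 was the 1 positive member. Reads can be split between copies that share windows (100% of those of Mup2 and 76.0% of those of Mup14, but none of Mup3). The members are therefore not separate measurements, and their counts are not those of independent genes. A member near 0 in EPA livers can also pass the count filter through OD livers alone. Mup12 had 12.1, 42.1, 89.9, 95.2 and 6.04 CPM in EPA livers and 154, 391, 900 and 60.7 CPM in OD livers (log2 difference -2.95 ± 0.79, adjusted p = 0.45), and 83.4% of its windows are shared with another copy. Without high-Xist livers the list median was -1.07. Part of the MUP list is also on the male-biased list (Mup3, Mup11 and Mup20).

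Without the high-Xist livers 5 genes passed an adjusted p of 0.05 (0.109% of 4605), all higher on EPA, and 315 had an unadjusted p under 0.05. They were Slc39a1, Sod1, Rps25, Abhd2 and Dnaja3. All 5 were also called when every liver was kept and high Xist entered the fit as a term. No OD liver had high Xist, so that contrast too rests mainly on the low-Xist EPA livers and is not a separate test. Abhd2 was among those DESeq2 called with all livers (adjusted p = 0.00295). Slc39a1 and Dnaja3 are named here after their values were seen. Sod1, the cytosolic superoxide dismutase, had 4457, 5016 and 4834 CPM in EPA livers 2, 3 and 4, 1002 and 1369 CPM in the high-Xist EPA livers 1 and 5 and 1300, 1370, 1170 and 878 CPM in OD livers. The low-Xist EPA livers were thus above all OD livers, while the high-Xist ones overlapped them. Sod1 rose by 2.01 in the low-Xist fit (adjusted p = 0.0201), against 1.499 ± 0.45 with all livers (adjusted p = 0.486). Slc39a1, the zinc importer ZIP1, had 268, 274 and 519 CPM in EPA livers 2, 3 and 4, 48.2 and 105 CPM in EPA livers 1 and 5 and 67.3 to 92.7 CPM in OD livers (2.18 without high-Xist livers, adjusted p = 0.0148).

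Rps25, a protein of the small ribosomal subunit, had 751, 813 and 902 CPM in EPA livers 2, 3 and 4, 376 and 380 CPM in EPA livers 1 and 5 and 350 to 391 CPM in OD livers (1.11 without high-Xist livers, adjusted p = 0.0201). It was the 1 called gene among 76 tested ribosomal protein genes, whose median was 0.16 in that fit and 0.11 with all livers. Dnaja3, a mitochondrial co-chaperone, had 139 to 152 CPM in EPA livers 2, 3 and 4, 86.4 and 68.4 CPM in EPA livers 1 and 5 and 57.8 to 75.3 CPM in OD livers (1.06, adjusted p = 0.0341). In DHA livers 1 to 5, of which liver 1 is the one of high Xist, Sod1 had 1211, 1585, 2518, 1246 and 3681 CPM and Rps25 had 351, 501, 494, 432 and 693 CPM. DHA liver 4, of low Xist, thus lay within the OD range for Sod1, near DHA liver 1. Of the 19 tested antioxidant genes, Sod1 among them, 13 were negative in the low-Xist fit, and their median was -0.10. Sod1, Slc39a1, Rps25 and Dnaja3 were called with the high-Xist livers left out. Their split by Xist within the EPA livers thus follows in part from that choice. Abhd2, also called, overlapped between the high-Xist and the other EPA livers. Among DHA livers, liver 1 was the lowest in both Sod1 and Rps25. For Rps25 every low-Xist DHA liver lay above the OD range, while for Sod1 DHA liver 4 did not. The part of sex in these differences was not tested.

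**Figure D4:**
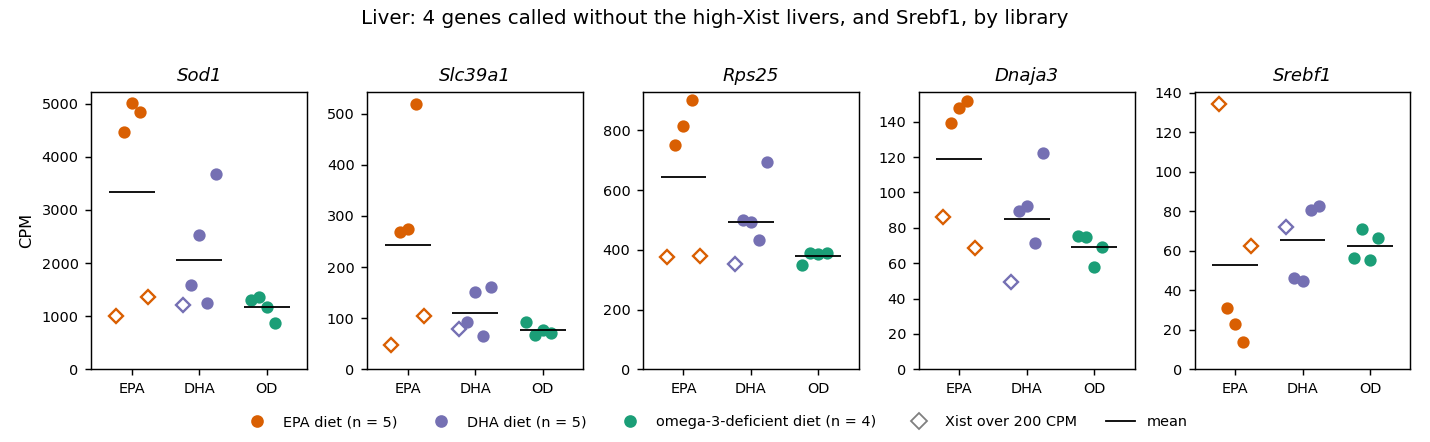
CPM of Sod1, Slc39a1, Rps25 and Dnaja3, called without the high-Xist livers, and of Srebf1, in each liver of the EPA, DHA and OD diets; open diamonds are livers with Xist over 200 CPM and bars are means. The 3 EPA circles of Sod1 lie at 4457 to 5016 CPM and both EPA diamonds at 1002 and 1369 CPM, among the OD livers.

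Acute phase genes varied widely between animals of both diets. Of 26 tested genes 23 were positive (median 0.29) and 1, Steap4, had an unadjusted p under 0.05, beside 3.52% of all genes higher. Without EPA liver 4 the median was -0.07 with 11 of 26 positive, and it was 0.18 without EPA liver 2 and likewise without OD liver 4. Saa1, the serum amyloid of inflammation, had 98.4, 3715, 293, 16940 and 225 CPM in EPA livers, against 5571, 970, 824 and 1001 CPM in OD livers (log2 difference 1.02 ± 1.19, adjusted p = 0.938). Lcn2, lipocalin 2, had 126, 1207, 180, 1975 and 276 CPM in EPA livers and 553, 200, 276 and 163 CPM in OD livers (1.33 ± 0.69, adjusted p = 0.781). EPA livers 2 and 4 were the high ones in both genes. Of 8 tested interferon response genes none had an unadjusted p under 0.05 (median -0.06).

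With all livers the medians of the stress and glucose lists were below zero, with single genes on both sides. The 18 genes of the unfolded protein and integrated stress responses had a median of -0.23 with 1 unadjusted p under 0.05, beside 3.19% of all genes lower. That gene was Pdia3, a disulfide isomerase, at 101 to 139 CPM in EPA and 158 to 244 CPM in OD livers (log2 difference -0.66 ± 0.20, adjusted p = 0.486, groups apart). The median was 0.01 without high-Xist livers, and with 1 liver left out it lay between -0.36 (without EPA liver 4) and -0.11 (without EPA liver 1). On DHA, set against the same OD livers, the median was -0.49, with 9 of the 18 genes at an unadjusted p under 0.05, all lower, beside 3.17% of all genes lower and 2.91% higher on DHA at that p. Of 20 tested genes of gluconeogenesis and insulin response 17 were negative (median -0.20). At an unadjusted p under 0.05, 2 were higher, beside 3.52% of all genes, and 2 were lower, beside 3.19%. G6pc, which releases glucose, had 77.5 to 317 CPM in EPA and 195 to 678 CPM in OD livers (-1.12 ± 0.41, adjusted p = 0.643). Insr, the insulin receptor, had 119 to 125 CPM in EPA and 92.7 to 110 CPM in OD livers (0.28 ± 0.13, adjusted p = 0.725).

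Markers of other cell types gave no unadjusted p under 0.05 in macrophages and Kupffer cells (15 tested, median -0.15), endothelium (9, -0.07) or stellate cells and fibroblasts (6, 0.08). In bulk tissue fewer cells of a type and less RNA per cell cannot be told apart. The summed level of macrophage markers was 524 to 1231 CPM of all counts in EPA and 651 to 1129 CPM in OD livers. Red cell transcripts summed to 389 to 12270 CPM in EPA and 324 to 13070 CPM in OD livers, a wide spread within both diets. Neutrophil markers summed to 8.80 to 61.1 CPM in EPA and 7.28 to 28.0 CPM in OD livers, and none of the 11 had enough counts to be tested. Lymphocyte and plasma cell markers, 3 of which were tested, summed to 200 to 472 CPM in EPA and 52.8 to 426 CPM in OD livers. Of the adipocyte markers only Fabp4 had enough counts, at 25.4 to 99.6 CPM in EPA and 20.3 to 27.8 CPM in OD livers (log2 difference 1.03 ± 0.36), while Adipoq had 1 count in all EPA and 1 count in all OD livers. Cd3e, the T cell marker, had 1 count in all EPA and 1 count in all OD livers, and Prss2, of pancreatic acinar cells, had 0 in both. The 1 acinar marker with enough counts was lower on EPA (log2 difference -1.30, unadjusted p under 0.05). The acinar markers summed to 14.1 to 41.8 CPM of all counts in EPA and 32.5 to 77.7 CPM in OD livers.

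**Figure D5:**
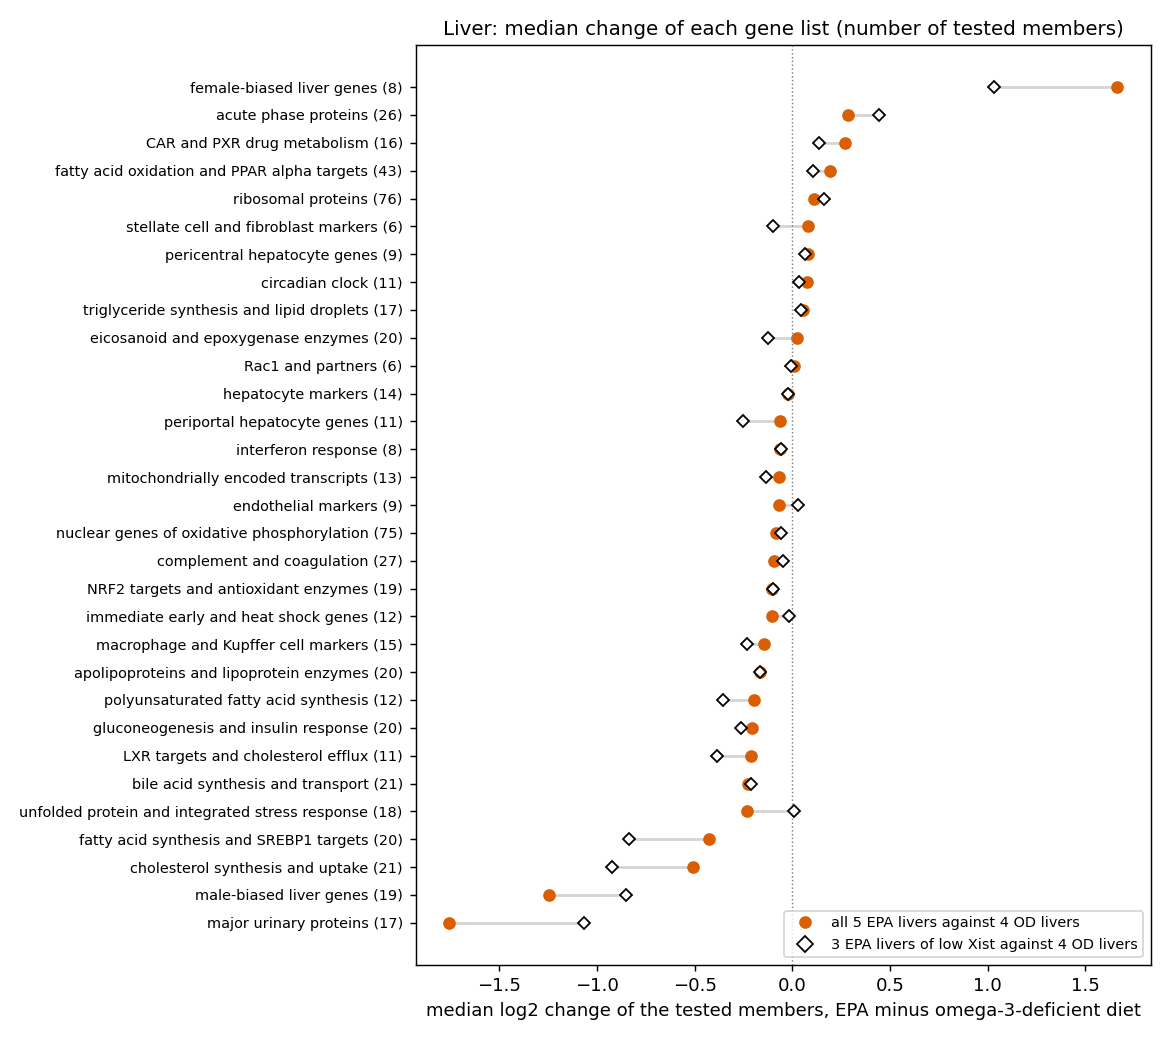
Median log2 difference, EPA minus OD, over the tested members of each gene list with at least 5 of them (number in brackets); filled circles are the fit with all 5 EPA livers and open diamonds the fit with the 3 EPA livers of low Xist, both against 4 OD livers. Medians range from -1.76 for major urinary proteins to 1.66 for female-biased genes, and the medians of cholesterol and fatty acid synthesis move away from 0 when the high-Xist livers are left out.

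The response of the liver was set against that of the aorta, the other deeply sequenced tissue, with the difference itself tested over 7527 genes. The test took the tissues as independent, although with 5 mice per diet their libraries would come from the same animals. In all 4 genes differed in their EPA effect (0.0531%), and 629 had an unadjusted p under 0.05. Elovl3 differed by -2.51 in liver and 1.53 in aorta, a liver minus aorta difference of -4.04 ± 0.75 (adjusted p = 0.0243). Ociad2 differed by -1.50 in liver and 1.58 in aorta, a difference of -3.08 ± 0.58 (adjusted p = 0.0243), and aortas had 10.8 to 17.5 CPM on EPA against 0 to 5.54 CPM on OD. Fmo2 differed by 1.73 in liver and -0.0002 in aorta (difference 1.73 ± 0.35, adjusted p = 0.0492), where it had 490 to 719 CPM on EPA and 463 to 760 CPM on OD. The fourth was the predicted gene Gm10053 (-1.42, adjusted p = 0.0243). Lipogenic Thrsp, at -1.53 in liver and 0.83 in aorta, had an adjusted p of 0.0935. None was called without the high-Xist libraries of both tissues, nor without EPA aorta 2, 3, 4 or 5, OD aorta 1, 3 or 4, or OD liver 1, while 19 were called without EPA aorta 1, 9 without OD liver 3 and 2 without OD liver 4.

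Between EPA and DHA livers no gene passed edgeR's test (0%), 170 had an unadjusted p under 0.05, and the smallest adjusted p was 0.9999, with 0 calls by DESeq2. For Fmo2 the EPA minus DHA difference was 0.02 ± 0.28 on the log2 scale, for Abhd2 0.35 ± 0.31, for Cd36 0.41 ± 0.33 and for Ociad2 -0.90 ± 0.32, each with an adjusted p of 0.9999. A p that misses the threshold does not show that the 2 diets act alike.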

How the data were processed

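The authors deposited raw counts per gene, 1 column per library, and normalised values headed CPM. Per the labels' protocols, 3' libraries with molecular identifiers were made with the QIAseq UPX 3' Transcriptome kit; the submitters' processing notes name the GRCm38.p6 build and edgeR, while no aligner is named in the labels, so it is not given in the sources used here. Because the deposited normalised values sum to a different total in each library, they were treated as a score, used for 1 alternative after log2 with an offset of 1. With 5 mice per diet, the livers and aortas of a diet would come from the same animals, but the labels do not match them. Replicate numbers follow accession order and pair nothing. The test of liver against aorta therefore took the tissues as independent. The p-values set a difference of groups against the spread between the libraries of each fit. Counts of the 14 livers were fitted with edgeR 4.0.16 (R 4.3.3), TMM scaling and the quasi-likelihood F test, with Benjamini-Hochberg adjustment over genes kept by filterByExpr (minimum count 10) on the 5 EPA and 4 OD livers. That filter drops a gene seen in few of the libraries only. SE is the log2 difference over the root of F. The interaction used 28 liver and aorta libraries. limma 3.58.1 and DESeq2 1.42.0 gave alternatives. The scripts were tested on simulated counts. Shares and sums named as of all counts use the library total. Mup windows were compared over GENCODE M21 transcripts; promoters come from RefSeq and were aligned globally with Biopython 1.88, and their orientation was checked against transcripts only in part.

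Members and gene lists were chosen with earlier results of these data known. Named genes are the 12 higher and 12 lower with the smallest p (predicted genes left out), up to 3 members of each list with 5 or more tested genes, and a list of liver lipid genes; a few others are named from the lists or as called in an alternative. Markers of cell types named by 1 defining gene are from the same lists. SE and SD reflect the spread between these libraries, not counting error alone. A few genes that this rule names are not reported here.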

Additional observations from a re-analysis of the deposited data

Results flagged for a closer look

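In all, 4 genes had an EPA effect that differed between liver and aorta by a test of the difference: the log2 difference of differences was -4.04 for Elovl3, -3.08 for Ociad2, -1.42 for Gm10053 and 1.73 for Fmo2. Among the groups looked at, 6 single livers stood far from the rest of their group over 110 groups (5.45%, where chance flags about 1 in 20). Saa1 was 16940 CPM in EPA liver 4, against 98.4 to 3715 CPM in the other EPA livers, and 5571 CPM in OD liver 1, against 824 to 1001 CPM in the other OD livers. Apoa4 was 1116 CPM in EPA liver 2, against 165 to 390 CPM in the other EPA livers. OD liver 4 was low in Sptbn1 (75.2 CPM, against 89.8 to 91.97 CPM in the other OD livers) and in Srd5a1 (39.05 CPM, against 88.3 to 96.4 CPM). OD liver 1 was high in Ociad2 (89.8 CPM, against 44.8 to 49.1 CPM in the other OD livers).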

How the results depend on the processing

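The count of 0 genes called for EPA against OD became 1 with the 5 EPA and 4 OD livers fitted alone (Mup2), 1 with limma on the deposited normalised values (Mup2), 3 with library totals alone, 4 with DESeq2, 5 without high-Xist livers, 6 with high Xist as a term and 124 with no filter on low counts; with 1 library left out it ranged from 0 to 1 (C6 without EPA liver 4, Mup2 without DHA liver 3). An alternative chosen after seeing the data, EPA and OD livers alone without the high-Xist ones, called 8. It stayed 0 with a filter over 14 livers, a minimum count of 30, DESeq2 size factors, a robust prior, limma-voom with weights and counts thinned to the lowest total. The 4 genes of the liver and aorta test became 1 with 18 libraries alone and 0 without high-Xist libraries, and ranged from 0 to 19 with 1 library left out. Without high-Xist livers Cyp4a14 was -0.0285 and Ehhadh -0.21, and -0.0199 and -0.20 with EPA and OD livers alone; with 1 library left out Fasn ranged from -1.28 to 0.15 (without OD liver 4). Library totals alone moved the median of all genes to 0.14, and with it the medians of the hepatocyte (0.11), antioxidant (0.04) and mitochondrially encoded (0.07) lists above 0. List medians with 1 liver left out, an alternative also chosen after seeing the data, ranged from -0.74 to -0.08 for fatty acid synthesis, -0.72 to -0.25 for cholesterol genes, -0.07 to 0.38 for acute phase genes, -0.42 to 0.05 for macrophage markers and 0.15 to 0.26 for fatty acid oxidation. The cause of these differences was not tested. EPA livers had fewer counts than OD livers, which limits low genes on EPA more. No paired analysis was possible because replicate numbers follow accession order.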
